A study of Mus musculus with 12 samples.

Results

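Interferon effectors and RNA sensors were followed as a group of 10 genes, listed by name for their function, in mice that model Huntington's disease and in their littermates. Of the 10, the genes Ddx58 and Ifih1 encode the cytosolic RNA sensors RIG-I and MDA5, and the other 8 (Ifit1, Ifit2, Ifit3, Oas1a, Oasl2, Mx1, Rsad2 and Isg15) encode antiviral effectors. All 10 were found by symbol among the 17579 genes of the deposited table. RNA was sequenced from 12 libraries in 4 groups, with 3 libraries for each genotype (wt or R6/1) in each tissue (retina or striatum). All mice were males of the C57Bl/6 background (substrain J in the study's methods) aged 13 to 15 weeks, had no treatment, and gave retina and striatum from the same animals. The R6/1 groups carry a transgene with the first exon of human huntingtin and an expanded CAG repeat, which causes Huntington's disease in people, and the wt groups are their littermates without it. RNA of several mice was pooled for each library, so n = 3 counts pools, and every SD and test below measures the spread between pools.

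Cells detect viral or misplaced RNA in the cytosol through RIG-I and MDA5, which signal through the adaptor Mavs to switch on type I interferon genes. Secreted interferon binds its receptor on the same and neighbouring cells, and the Jak kinases then activate transcription factor complexes, Irf9 among their parts, that bind interferon-response elements in promoters. The genes switched on in this way include the sensors themselves, so the pathway feeds back on its own detectors. In retina and brain, microglia, macroglia and neurons can all respond to interferon.

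The 3 Ifit genes lie within one stretch of chromosome 19 of GRCm38, from position 34550694 at the start of Ifit2 to 34650009 at the end of Ifit1. All 3 are on the plus strand, and Ifit3 ends at 34588731, well before the start of Ifit1 at 34640871. Oasl2 and Oas1a are both on chromosome 5, Isg15 and Ddx58 both on chromosome 4, and Ifih1, Rsad2 and Mx1 lie on chromosomes 2, 12 and 16. All 10 are annotated as protein-coding genes.

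The sequence before the start sites of these genes was described as well. Because the genes were listed as interferon effectors, a high share of interferon-response motifs among them is partly built into the choice. RefSeq promoter windows on GRCm38.p6, from 250 bases before to 50 bases after an annotated start, were found for 9 of the 10 genes, all but Mx1. They were searched on both strands for GAAANNGAAA (TTTCNNTTTC on the other strand), the core of the interferon-response element, with overlapping matches counted. The motif was present in 7 of the 9 genes (77.8%), against 3.44% of all 32851 windows of this length and 3.70% of the genes tested in the retina. The matched stretches are shown because they are what these genes share in sequence, each 5′ to 3′ on the strand of its gene, with the matches in capitals.
Isg15, chr4:156200860-156200911, minus strand: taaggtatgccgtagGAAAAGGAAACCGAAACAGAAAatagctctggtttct
Oas1a, chr5:120907526-120907560, minus strand: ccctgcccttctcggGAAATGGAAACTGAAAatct
Ifit1, chr19:34640770-34640828, plus strand: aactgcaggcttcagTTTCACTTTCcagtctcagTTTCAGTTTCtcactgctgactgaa
Ifit3, chr19:34583358-34583431, plus strand: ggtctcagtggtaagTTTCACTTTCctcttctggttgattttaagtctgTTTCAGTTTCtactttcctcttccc
Rsad2, chr12:26456548-26456587, minus strand: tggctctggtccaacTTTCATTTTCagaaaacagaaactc
Ddx58, chr4:40239804-40239833, minus strand: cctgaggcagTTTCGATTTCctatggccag
Ifih1, chr2:62646206-62646233, minus strand: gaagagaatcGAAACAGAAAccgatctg

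Isg15 held 3 overlapping matches between 78 and 57 bases before its start, and Oas1a held 2 overlapping matches between 20 and 5 bases before its start. Ifit1 and Ifit3 each held 2 separate matches, with the same 10 bases at the matching places in both genes. Rsad2 held 1 match upstream, whereas the single matches of Ddx58 and Ifih1 lay after the start, at bases 3 to 12 and 33 to 42. No match to these letters was present in either window of Ifit2 or in that of Oasl2. A match is a stretch of letters and was not tested as a bound site. Among genes that rose in R6/1 retinas 7.06% held the motif, and among those that fell 3.51%.

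**Figure D1:**
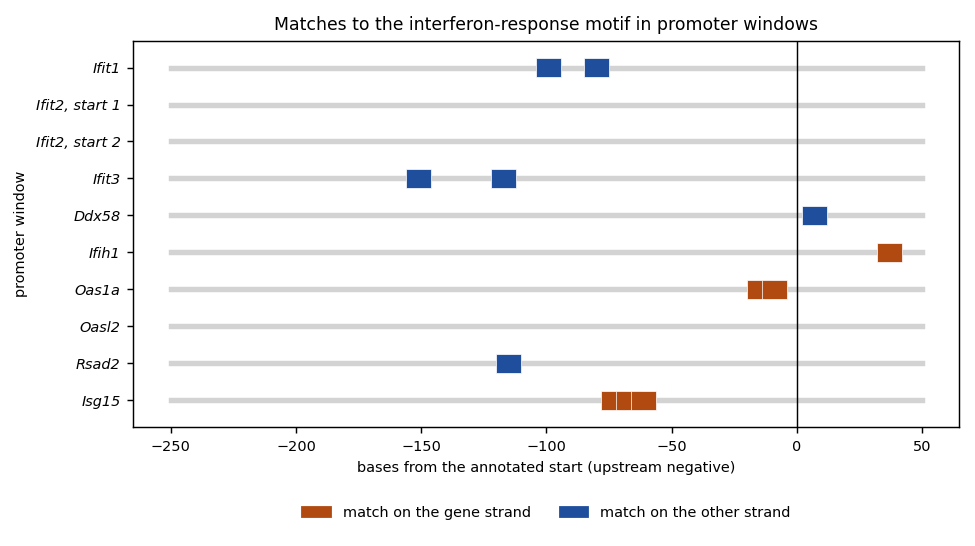
Position of each match to GAAANNGAAA in the promoter windows of 9 genes (10 windows, since Ifit2 has 2 starts), in bases from the annotated start, with matches on the strand of the gene in orange and on the other strand in blue. The grey lines are the windows searched; matches of Ifit1, Ifit3, Rsad2, Isg15 and Oas1a lie upstream, those of Ddx58 and Ifih1 after the start, and the 3 windows of Ifit2 and Oasl2 are empty.

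Total counts per library were 14070445 to 22432431. Levels are given as CPM, the counts of a gene scaled to the size of its library and with TMM factors, which correct for libraries where a few genes take much of the reads, and differences as log2 fold changes of R6/1 over wt from edgeR with their standard error (SE). The SE was derived from each log2 value and its test statistic, and is uncertain for very small differences. Intervals around log2 values were built from the SE with no allowance for the small number of libraries, so they are too narrow. For Ifit3 in wt retina against wt striatum the interval ran from 0.09 to 1.26, although the unadjusted p of the edgeR test was 0.058. A gene passed the test at a Benjamini-Hochberg adjusted p under 0.05 over all genes tested. The tissue labels were borne out by marker genes: 8 rod photoreceptor genes summed to 57924 to 65791 CPM in wt retinas and at most 7.75 CPM in any striatum. In R6/1 retinas the same rod genes summed to 16910 to 24232 CPM and all 8 fell, a change in the make-up of the RNA in which fewer rods and less RNA per rod cannot be told apart. One library stood apart in the striatum. The library labelled wt striatum replicate 2 had a mean Spearman correlation over genes of 0.992 with the other wt striata and 0.994 with the R6/1 striata, whereas wt striatum replicates 1 and 3 had 0.994 and 0.993 with their own group and 0.989 and 0.989 with R6/1. Its summed medium spiny neuron markers, 2808 CPM, were nearer to the other wt striata (3804 and 3011 CPM) than to R6/1 striata (862 to 1657 CPM). Striatal values of the 10 genes are therefore given with and without it.

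In the retina, 9 of the 10 genes rose in R6/1 mice, all but Mx1, against 9.58% of the 16582 genes tested that rose. The median log2 fold change of the 10 was 1.25, against 0.01 over all genes tested. In those 9 genes every R6/1 retina lay above every wt retina, a pattern seen in 15.3% of all genes tested. The summed level of the 10 genes was 68.4, 72.3 and 73.8 CPM in wt retinas and 131, 171 and 137 CPM in R6/1 retinas.

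**Figure D2:**
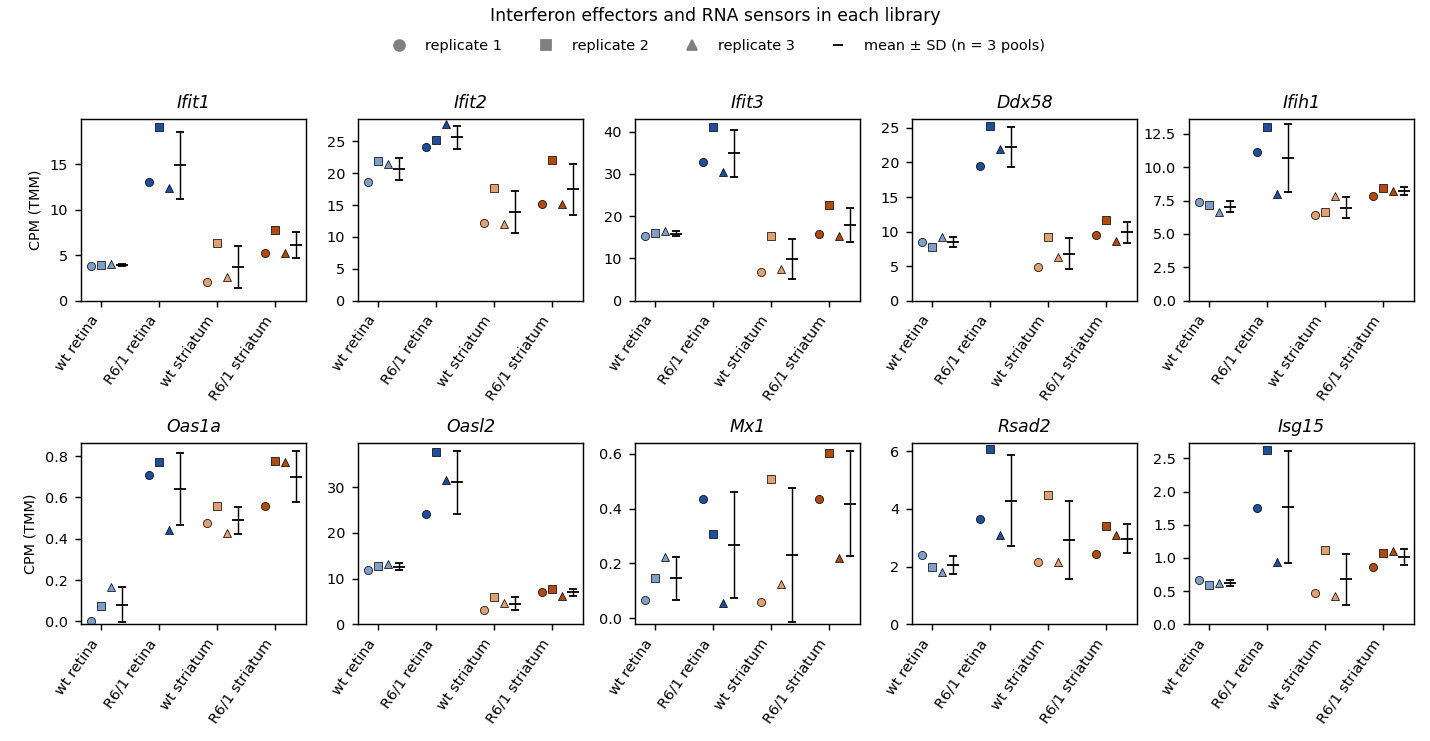
Level of each of the 10 genes in every library, in CPM with TMM factors, by group; point shapes mark replicate numbers and the bar beside each group is the mean ± SD of its 3 pools. In 9 panels the R6/1 retinas (dark blue) lie above the wt retinas (light blue), and in the striatum the square of wt replicate 2 lies above the other wt libraries in every panel but that of Ifih1.

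Both RNA sensors rose in the R6/1 retina. Ddx58 stood at 8.50, 7.83 and 9.15 CPM in wt retinas and at 19.5, 25.3 and 22.0 CPM in R6/1 retinas, so the groups were well apart. Its log2 fold change was 1.42 (SE 0.12, adjusted p = 1.64e-07), and it passed under all 15 alternative settings tried. Ifih1, whose product senses longer double-stranded RNA, had 7.36, 7.17 and 6.62 CPM in wt retinas and 11.1, 13.0 and 7.98 CPM in R6/1 retinas. The third R6/1 pool was thus close to the wt values, and the log2 fold change was 0.64 (SE 0.16, adjusted p = 0.00952). Leaving out wt retina replicate 3 ended this call, with an adjusted p of 0.05002 that stood just over the threshold.

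The Ifit1 protein binds foreign RNA through its 5′ end and blocks its translation. The 3 Ifit genes differed in how far they moved despite their shared locus. Ifit1 was flat across wt retinas, at 3.82, 3.95 and 4.04 CPM, and reached 13.1, 19.1 and 12.4 CPM in R6/1 retinas. This rise was 3.85-fold, or 1.95 on the log2 scale (SE 0.16, adjusted p = 4.14e-07). Ifit3 had 15.2, 16.0 and 16.4 CPM in wt retinas and 32.8, 41.2 and 30.6 CPM in R6/1 retinas, a log2 fold change of 1.17 with SE 0.11 (adjusted p = 8.46e-07). Ifit3 has a near-identical neighbour, Ifit3b, which rose by 1.04 (SE 0.12) on the log2 scale, and how reads were divided between the pair is uncertain. Ifit2, which lacks the motif in its windows, had 18.6, 21.9 and 21.5 CPM in wt retinas and 24.1, 25.2 and 27.6 CPM in R6/1 retinas. Its groups did not overlap but the step was small, at 0.34 on the log2 scale (SE 0.09, adjusted p = 0.0149). The call for Ifit2 was lost without R6/1 retina replicate 3 (adjusted p = 0.0677), without wt retina replicate 1 (0.0944) and in a single fit of all 12 libraries (0.242).

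Of the genes related to oligoadenylate synthetases, which make a messenger that activates RNase L, Oasl2 was the better measured. Oasl2 encodes a synthetase-like protein and had 11.8, 12.7 and 13.2 CPM in wt retinas and 24.0, 37.8 and 31.5 CPM in R6/1 retinas. The groups were far apart, 1.34 on the log2 scale (SE 0.14, adjusted p = 3.76e-05), although no motif match was found in its window. Oas1a rested on few reads, with 0, 1 and 3 counts in wt retinas and 13, 15 and 8 counts in R6/1 retinas. Its log2 fold change was 2.84 (SE 0.71, adjusted p = 0.00822), and the ratio of summed counts, corrected for depth, was 7.49 with an exact 95% interval of 2.68 to 29.0 that covers counting error only. Without wt retina replicate 3, which held 3 of the 4 wt counts, the log2 fold change was 3.96 (adjusted p = 0.00886). Oas1a also has close relatives in its cluster, so the division of reads among them is uncertain.

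The remaining effectors were among the scarcer genes of the group. Rsad2, which encodes viperin, an enzyme that makes a chain-terminating nucleotide, had 2.41, 1.97 and 1.80 CPM in wt retinas and 3.66, 6.07 and 3.10 CPM in R6/1 retinas. Its R6/1 pools spread widely but stayed above wt, by 1.09 on the log2 scale (SE 0.25, adjusted p = 0.00533). Isg15, a ubiquitin-like protein that is joined to other proteins, had 0.669, 0.585 and 0.617 CPM in wt retinas and 1.75, 2.62 and 0.942 CPM in R6/1 retinas. The log2 fold change of Isg15 was 1.53 (SE 0.38, adjusted p = 0.00786), a call that was lost without R6/1 retina replicate 2 (0.0588) and in limma-voom (0.0560). Mx1, a dynamin-like GTPase that is defective in many laboratory mouse strains, had 1, 2 and 4 counts in wt retinas and 8, 6 and 1 counts in R6/1 retinas. With these 22 counts in all, a difference in Mx1 was not detectable (log2 fold change 0.84, 95% interval -0.72 to 2.41, adjusted p = 0.493).

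The 3 R6/1 retinas were not alike in these genes. R6/1 retina replicate 2 was the highest of its group for 8 of the 10 genes, against 33.2% of all genes, and replicate 3 was the lowest for 7 of the 10. Without replicate 2 the median log2 fold change of the 10 was 1.08, and 8 of the 10 rose, against 9.19% of all genes tested.

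In the striatum none of the 10 genes passed the edgeR test, where 1.45% of the 16728 genes tested passed in either direction and 0.132% rose. At an unadjusted p under 0.05 there were 3 genes (Ifit3, Oasl2 and Ddx58), and DESeq2 called 1 (Ifit3, adjusted p = 0.0366), where it called 1.06% of all genes higher. The 10 estimates all lay above 0, with a median log2 fold change of 0.55 against 0.01 over all genes tested. For 3 genes (Ifit3, Oasl2 and Ifih1) every R6/1 striatum lay above every wt striatum, a pattern seen in 12.8% of all genes tested.

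The wt striata themselves were split. The summed level of the 10 genes was 38.5, 67.6 and 43.9 CPM in wt replicates 1, 2 and 3, and 64.8, 86.1 and 64.0 CPM in the R6/1 striata. Replicate 2 of wt striatum was thus above 2 of the 3 R6/1 libraries. It exceeded both other wt striata for 9 of the 10 genes, all but Ifih1, whereas 37.9% of all genes were highest there. Its ratio to the mean of the other two had a median of 1.87 over the 10 genes and ran from 0.928 for Ifih1 to 5.57 for Mx1. For all 10 genes the 3 R6/1 striata lay above wt striatum replicates 1 and 3, a pattern seen in 23.5% of all genes tested without the overlapping library. R6/1 striatum replicate 2 was in turn the highest of its group for 9 of the 10, against 38.1% of all genes.

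**Figure D3:**
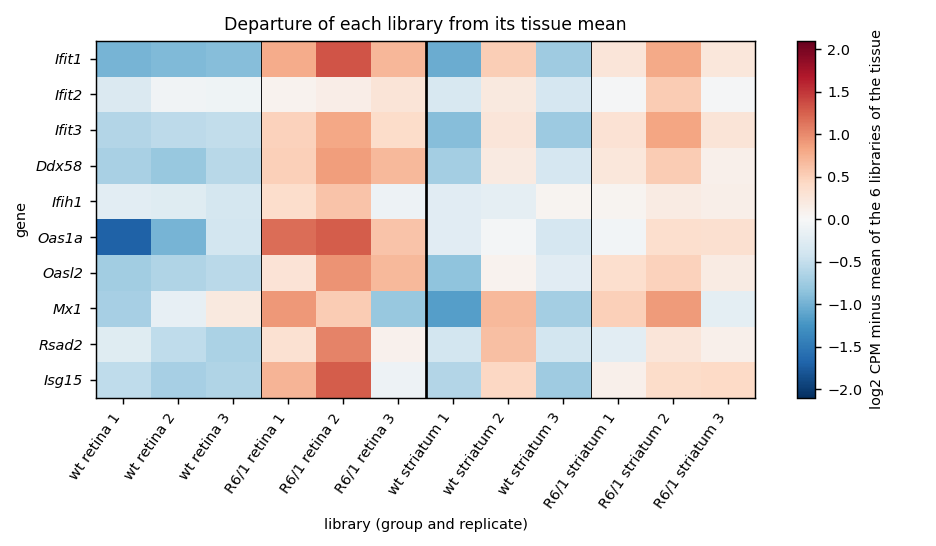
Departure of each library from the mean of the 6 libraries of its tissue, in log2 CPM (prior count 2), for the 10 genes; red is above and blue below that mean, and the thick line parts retina from striatum. The 3 wt retinas are blue, apart from replicate 3 for Mx1, and the R6/1 retinas mostly red, whereas in the striatum wt replicate 2 is red for most genes, like the R6/1 libraries.

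Among the striatal values, Ifit1 had 2.09, 6.36 and 2.58 CPM in wt and 5.27, 7.74 and 5.22 CPM in R6/1 libraries, which overlap through wt replicate 2. Ifit3 had 6.81, 15.2 and 7.43 CPM in wt and 15.7, 22.5 and 15.4 CPM in R6/1 striata, so that its groups nearly touched without overlapping. Its log2 fold change was 0.86 (SE 0.33, adjusted p = 0.224), and that of Ifit1 was 0.71 (SE 0.41, adjusted p = 0.393). Ddx58 had 4.84, 9.21 and 6.26 CPM in wt and 9.48, 11.6 and 8.63 CPM in R6/1 striata, and Oasl2 had 3.05, 5.85 and 4.67 CPM in wt and 7.07, 7.79 and 6.27 CPM in R6/1 striata. The log2 fold change was 0.54 for Ddx58 (SE 0.23, adjusted p = 0.235) and 0.63 for Oasl2 (SE 0.22, adjusted p = 0.166).

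Those 4 genes passed once the number of the pool was taken into account or wt striatum replicate 2 was left out. Use of the number rests on correlations in these same data and not on the labels. For each of the 4 genes wt striatum replicate 2 was the highest wt striatum, so leaving it out raises the estimate by itself. Deviations from the group mean were correlated between wt and R6/1 striata of the same number, and with the number as a block Ifit3 rose by 0.91 (adjusted p = 0.00226), Ifit1 by 0.79 (0.0449), Ddx58 by 0.56 (0.0394) and Oasl2 by 0.65 (0.0497) on the log2 scale. In that fit 2.83% of all genes tested rose. Without wt striatum replicate 2 the log2 fold changes were 1.39 for Ifit1 (adjusted p = 0.00903), 1.34 for Ifit3 (0.00487), 0.84 for Ddx58 (0.0212) and 0.87 for Oasl2 (0.0310), and 4.32% of all genes tested rose. The same 4 genes passed with both striatal libraries numbered 2 left out, where 6.21% of all genes tested rose. The striatal calls thus depended on the model and on which libraries were kept.

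The other 6 genes passed in none of these fits. Ifit2 had 12.1, 17.7 and 11.97 CPM in wt and 15.1, 22.1 and 15.1 CPM in R6/1 striata, with a log2 fold change of 0.32 (SE 0.20). Ifih1 had 6.40, 6.62 and 7.86 CPM in wt and 7.87, 8.48 and 8.19 CPM in R6/1 striata, with a log2 fold change of 0.23 (SE 0.13). Rsad2 showed the smallest estimate of the group, 0.01 (SE 0.31, 95% interval -0.59 to 0.61), from 2.15, 4.48 and 2.15 CPM in wt and 2.42, 3.40 and 3.08 CPM in R6/1 striata. Its highest striatal value of any genotype was thus wt replicate 2. Isg15 had 0.478, 1.12 and 0.430 CPM in wt and 0.868, 1.08 and 1.10 CPM in R6/1 striata, with wt replicate 2 again the highest. Oas1a had 8, 11 and 7 counts in wt and 9, 18 and 14 counts in R6/1 striata, and Mx1 had 1, 10 and 2 against 7, 14 and 4 counts, too few to detect a difference at this depth. The log2 fold changes of these 3 were 0.56 (SE 0.43), 0.51 (SE 0.38) and 0.80 (SE 0.73). Without wt striatum replicate 2, Isg15 was at 1.15 (SE 0.43, adjusted p = 0.118) and Mx1 at 2.15 (SE 0.82, adjusted p = 0.126) on the log2 scale, each more than 1.5 times its fold with all libraries. The other 4 were then at 0.54 (Ifit2), 0.20 (Ifih1), 0.47 (Rsad2) and 0.63 (Oas1a), with adjusted p-values of 0.0976 to 0.429.

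**Figure D4:**
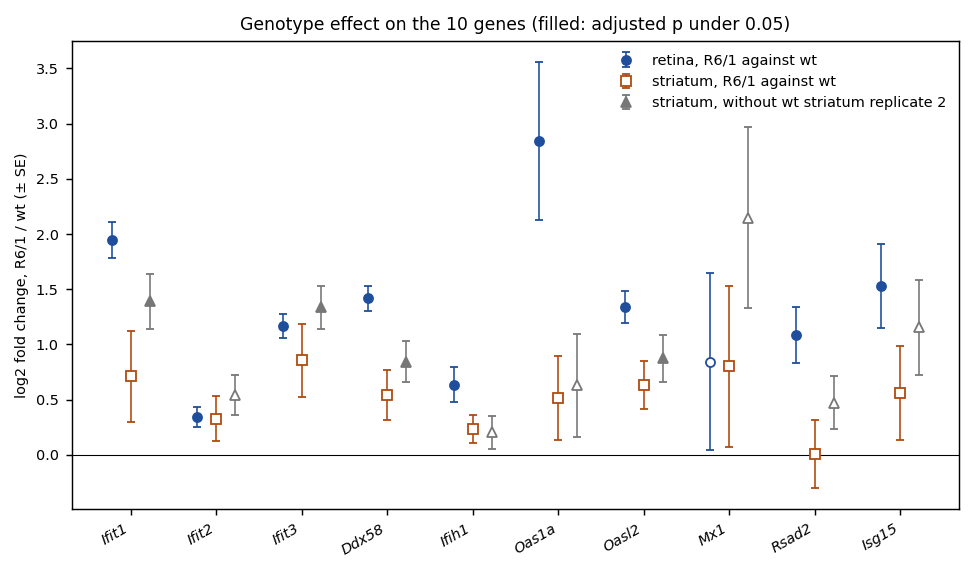
Log2 fold change of R6/1 over wt with its standard error for each gene, in the retina (blue), in the striatum (orange) and in the striatum without wt striatum replicate 2 (grey); filled symbols have an adjusted p under 0.05. The 9 filled retinal symbols run from 0.34 for Ifit2 to 2.84 for Oas1a, and the striatal symbols are open until replicate 2 is left out, when Ifit1, Ifit3, Ddx58 and Oasl2 are filled.

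Whether the genotype effect differed between retina and striatum was tested directly, as an interaction over all 12 libraries. None of the 10 genes passed in edgeR, against 8.24% of the 15731 genes tested, although 5 had an unadjusted p under 0.05. DESeq2 called 1 (Ddx58, adjusted p = 0.0391), with a positive difference. It called 671 of all 15731 genes in that direction and 10.3% in either direction. The estimate (retinal minus striatal log2 fold change) was above 0 for 9 of the 10 genes, with a median of 0.76. This fit treated the 2 tissues as independent, although they came from the same animals. With the replicate number within each genotype as a block the median was 0.71. The 2 smallest p-values belonged to Ddx58, with a difference of 0.84 (SE 0.27, adjusted p = 0.0736), and Oas1a, with 2.30 (SE 0.77, adjusted p = 0.0835). Ddx58 passed on leaving out wt striatum replicate 1 (0.0237), R6/1 striatum replicate 2 (0.0454) or both striatal libraries numbered 2 (0.0390). For Ifit1 the difference was 1.20 (95% interval 0.24 to 2.17, adjusted p = 0.169), for Rsad2 1.04 (0.17 to 1.92, 0.175) and for Oasl2 0.68 (0.12 to 1.24, 0.175). For Ifit3 the difference was 0.28 (95% interval -0.47 to 1.03), and for Ifit2 it was -0.02 (-0.48 to 0.45). Thus the retinal calls and the absence of striatal calls were not shown to be a difference between tissues for any single gene in the edgeR test.

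Without the transgene, 3 of the 10 genes differed between tissues. Oasl2 was 2.75-fold higher in the wt retina compared with the wt striatum (log2 difference 1.46, SE 0.20, adjusted p = 3.88e-05), and Ifit2 was 1.47-fold higher (0.56, SE 0.15, adjusted p = 0.00611). Oas1a was lower in wt retina, at 4 counts over the 3 libraries against 26 in wt striatum (log2 difference -2.43, SE 0.73, adjusted p = 0.00971). Of all 16864 genes tested 37.8% were higher and 38.5% lower in wt retina, so a share of 3 in 10 is below that of all genes. Without wt striatum replicate 2 there were 6 genes, with Ifit3 (log2 difference 1.16), Ifit1 (0.75) and Ddx58 (0.62) also higher in retina, where 76.7% of all genes tested differed in either direction. This comparison shares the wt libraries with the genotype comparisons and is not independent of them. Its main fit also left unused that both tissues came from the same animals.

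Levels can be set against each other between genes per kilobase of annotated exon. In wt retina Ifit3 was the most abundant at 9.10 ± 0.36 CPM per kilobase (SD, n = 3), followed by Ifit2 at 5.26 ± 0.46, Oasl2 at 1.97 ± 0.12 and Ifit1 at 1.48 ± 0.04. Ddx58 (1.20 ± 0.09), Ifih1 (0.864 ± 0.047) and Isg15 (0.825 ± 0.056) followed, and the last of these and its neighbour differed by less than their spread. Oas1a and Mx1 were lowest, at 0.043 ± 0.045 and 0.039 ± 0.021, and could not be ordered. In R6/1 retina the leading genes were Ifit3 at 19.99 ± 3.21, Ifit2 at 6.53 ± 0.46, Ifit1 at 5.60 ± 1.38 and Oasl2 at 4.88 ± 1.08, of which the last 3 lay within 1 SD of a neighbour. Ifit3 and Ifit2 also led in both striatal groups, with 5.63 ± 2.68 and 3.55 ± 0.82 CPM per kilobase in wt.

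The genes whose retinal pattern was most like that of the group, by Pearson correlation with its mean log2 CPM over the 6 retinas among 13609 other genes, were led by 4931406C07Rik (0.996) and included Mfrp, A2m and Srpr (0.994 each). The values rest on 6 libraries that share the split by genotype. A2m, a protease inhibitor, went from 10.04 ± 0.53 CPM in wt to 52.2 ± 20.1 CPM in R6/1 retinas (log2 fold change 2.41, adjusted p = 0.0149). Srpr, a subunit of the signal recognition particle receptor, rose by only 0.32 on the log2 scale.

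The wider interferon system was described with 6 lists of genes by role, none of which holds any of the 10. Of 86 listed genes 76 were in the table, and in the retina 36 of them rose and 1 fell. Of all 16582 genes tested in the retina 1588 (9.58%) rose and 2103 fell, shares against which the retinal counts of each list below are to be read. In the striatum 74 were tested and none passed in edgeR, where 1.45% of all genes tested passed in either direction. There 8 passed with the number as a block and 11 without wt striatum replicate 2, all of them higher in R6/1. In these 2 fits 2.83% and 4.32% of all genes tested rose. Without R6/1 retina replicate 2, 28 of the 75 genes still tested passed in the retina, where 9.19% of all genes tested rose.

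Among RNA sensors, their adaptors and RNA-directed effectors, 4 of 12 rose in the R6/1 retina. Ddx60, a helicase that promotes RIG-I signalling, went from 4.78 ± 0.40 to 12.1 ± 1.3 CPM (log2 fold change 1.37, SE 0.13). Eif2ak2, the kinase PKR that halts translation on sensing double-stranded RNA, rose by 1.13 (SE 0.11), Zc3hav1, the zinc-finger antiviral protein, by 1.00 (SE 0.15), and Trim25, a ligase of the RIG-I pathway, by 0.20 (SE 0.07, adjusted p = 0.0489). The adaptor Mavs was at 21.9 ± 2.6 and 19.1 ± 1.5 CPM and did not pass (adjusted p = 0.288), and the RNA-editing enzyme Adar had a log2 fold change of -0.01 (SE 0.06), both picked out after their values were seen. The median of the list was 0.36. In the striatum the smallest p-values were those of Ddx60 (0.86, SE 0.25, adjusted p = 0.114) and Zc3hav1 (0.59, SE 0.19, adjusted p = 0.147), and these 2 passed with the number as a block, as did Ddx60, Zc3hav1 and Eif2ak2 without wt striatum replicate 2.

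Among relatives in the Ifit, Oas and Mx families, 11 of 14 listed genes were in the table and 4 rose in the retina. Besides Ifit3b, these were Oas1b (0.638 ± 0.160 to 1.89 ± 0.45 CPM, log2 fold change 1.58, SE 0.33), Ifit1bl2 (1.53, SE 0.49) and Oas1g. Oas1g had 1 count in wt and 16 in R6/1 retinas, a depth-corrected ratio of 13.3 with an exact 95% interval of 2.07 to 558. In the striatum it had 1 and 11 counts, with a ratio of 10.1 (1.46 to 433) that did not pass in edgeR (adjusted p = 0.178), and Oas1b was at 0.89 on the log2 scale (SE 0.44, adjusted p = 0.302). The list's median was 1.38 in the retina and 0.38 in the striatum.

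The enzymes that attach Isg15 to proteins and remove it rose together with it in the retina, 4 of 4. Herc6, the ligase of the mouse, went from 6.67 ± 0.37 to 10.8 ± 1.1 CPM (log2 fold change 0.73, SE 0.13), the conjugating enzyme Ube2l6 rose by 0.68 (SE 0.18) and the activating enzyme Uba7 by 0.68 (SE 0.21). Usp18, which removes Isg15 and dampens the interferon receptor, rose by 1.21 (SE 0.40, adjusted p = 0.0461) with groups that overlapped. In the striatum the median of the 4 was 0.08, and the smallest p-values were those of Herc6 (-0.24, adjusted p = 0.637) and Uba7 (0.15, adjusted p = 0.753).

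Of the other interferon-stimulated genes 28 were measured and 21 rose in the retina, with a median of 1.01. Parp12, Parp9 and Parp14, which belong to the ADP-ribosyltransferase family, rose by 1.09 (SE 0.10), 1.28 (SE 0.13) and 1.08 (SE 0.13), and Ifitm3, which blocks viral entry, went from 2.75 ± 0.13 to 7.05 ± 1.83 CPM (1.39, SE 0.20). The difference between tissues passed for 3 of the 28, each larger in the retina. Of all 15731 genes tested 531 passed in that direction, and 8.24% in either direction. These were Trim30a (1.43, SE 0.35, adjusted p = 0.0213), Ifitm3 (1.07, SE 0.27, adjusted p = 0.0272) and Ifi27 (0.93, SE 0.26, adjusted p = 0.0425), of which Trim30a and Ifi27 were named after their values were seen. In the striatum the log2 fold change of Dtx3l, a partner of Parp9, was 0.55 (SE 0.19, adjusted p = 0.161) and that of Parp14 0.46 (SE 0.16, adjusted p = 0.176). Dtx3l passed with the number as a block (0.57, adjusted p = 0.0345), and Parp14 without wt striatum replicate 2 (0.65, adjusted p = 0.0265).

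The measured receptors and relay proteins had a median log2 fold change of 0.15 in the retina and 0.13 in the striatum. Ifna4, Ifnb1, Ifng, Ifnl2 and Ifnl3, the listed interferons, were not among the genes of the table. Of the other 14 genes of this list 3 rose in the retina and 1 fell. Among those that rose, Irf9 went from 15.3 ± 0.4 to 23.4 ± 1.0 CPM (log2 fold change 0.65, SE 0.09), and Irf1 rose by 0.53 (SE 0.15). Irf3, the factor that RIG-I and MDA5 signalling activates, fell by 0.34 on the log2 scale (SE 0.07, adjusted p = 0.00222), from 43.1 ± 1.1 to 33.3 ± 2.2 CPM. In the striatum Irf3 had a log2 fold change of 0.23, and the difference between tissues passed (-0.60, SE 0.14, adjusted p = 0.0137). In the striatum Jak2 had -0.20 (SE 0.07, adjusted p = 0.150).

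None of 7 genes of cytosolic DNA sensing, a parallel route to interferon, passed in either tissue in edgeR with all libraries and no block, with medians of 0.10 in the retina and 0.23 in the striatum. In the retina the smallest p-values were those of Ifi204, a DNA sensor (1.00, SE 0.45, adjusted p = 0.123), Samhd1, which degrades nucleotides (0.16, SE 0.08, adjusted p = 0.150), the kinase Tbk1 (0.10, SE 0.07) and Aim2 (-0.28, SE 0.24). In the striatum Samhd1 had 0.39 (SE 0.10, adjusted p = 0.0929), which passed with the number as a block and without wt striatum replicate 2, and Ifi204 had 1.34 (SE 0.38, adjusted p = 0.108).

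**Figure D5:**
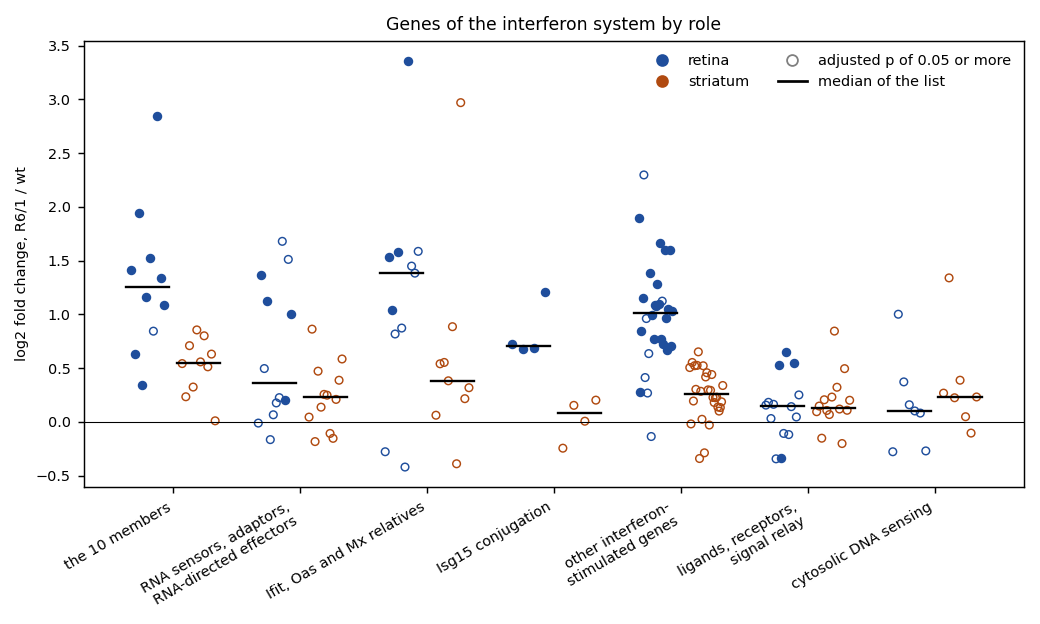
Log2 fold change of R6/1 over wt for the 10 genes and for the genes of 6 lists by role, in the retina (blue) and the striatum (orange); filled points have an adjusted p under 0.05 and bars are medians over the genes tested. The retinal medians are 1.25 for the 10 genes, 1.38 for relatives and 1.01 for other interferon-stimulated genes, against 0.15 for ligands, receptors and relay and 0.10 for DNA sensing, and no striatal point is filled.

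Markers of other cells differed in whether and in which direction they changed in R6/1 retinas. Over all genes tested 1588 of 16582 (9.58%) rose and 2103 fell in the retina, and 22 of 16728 rose and 220 fell in the striatum. The 12 microglial markers summed to 51.8 to 53.2 CPM in wt and 73.3 to 84.1 CPM in R6/1 retinas, and 8 of the 12 rose. In the striatum, where microglial markers stood far higher, they summed to 495 to 540 CPM in wt and 451 to 490 CPM in R6/1 and none passed. In R6/1 retina replicates 1, 2 and 3 the sum of the 10 genes was 131, 171 and 137 CPM. In the same order the microglial sum was 84.1, 74.8 and 73.3 CPM and the monocyte sum 3.22, 4.73 and 2.55 CPM. That of Müller glia and astrocytes was 2568, 2718 and 2865 CPM. Monocyte markers summed to 1.32 to 1.80 CPM in wt and 2.55 to 4.73 CPM in R6/1 retinas, where 1 of the 5 (Lyz2) rose, Ly6c2 was at 0.056 to 0.134 CPM in wt and 0.111 to 0.309 CPM in R6/1 and did not pass, and Ccr2, Plac8 and Ms4a7 were at 0 in all 6 retinas. Of the 10 T, B and NK cell markers Cd3d, Cd3e, Cd3g, Ncr1 and Nkg7 were not among the genes of the table, and the other 5 summed to 0.951 to 1.57 CPM in wt and 0.831 to 1.03 CPM in R6/1 retinas with none passing. Of 8 markers of Müller glia and astrocytes 3 rose, Gfap among them, and 1 fell, with sums of 3046 to 3536 CPM in wt and 2568 to 2865 CPM in R6/1 retinas. Of 8 endothelial and pericyte markers 1 rose and 1 fell, at 255 to 277 and 264 to 287 CPM. Of 5 red blood cell markers 3 fell in the retina (40.7 to 58.2 against 19.8 to 31.6 CPM) and 2 in the striatum (124 to 164 against 83.4 to 96.4 CPM). Of 8 medium spiny neuron markers 5 fell in the retina (906 to 963 against 624 to 664 CPM) and 1 in the striatum (2808 to 3804 against 862 to 1657 CPM). These counts of calls do not measure the size of the fall, and Rgs9 alone stood at 812 to 865 CPM in wt retinas. Of 5 markers of retinal pigment epithelium none passed in either tissue. In their sum R6/1 striatum replicate 3 stood out at 137 CPM against at most 18.9 CPM in the other striata. The part of these cells in the rise of the 10 genes was not tested, and in whole tissue more responding cells and more RNA per cell cannot be told apart.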

How the data were processed

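Stranded mRNA libraries were read paired-end by the authors, who used CASAVA for base calls and Trimmomatic for trimming. The deposited table holds each gene's estimated counts, which the authors obtained with Salmon on the GRCm38/mm10 mouse genome and gave as whole numbers after removing genes of few counts. Tool versions and the way transcripts were summed to genes are not given in the sources used here. Names and positions were taken from GENCODE vM21 for 17530 of the 17579 genes. No column was left unmapped.

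Counts were fitted with edgeR 4.0.16 in R 4.3.3 (quasi-likelihood F-test, robust, TMM factors, at least 10 counts over the libraries of the fit) with Benjamini-Hochberg adjustment over the genes tested. The fit was tested on simulated data. For log2 CPM the prior count was 2. The alternatives tried were limma-voom (limma 3.58.1), DESeq2 1.42.0, other scaling, filters and estimates of the spread, the replicate number as a block, 1 fit of all 12 libraries, an adjusted p under 0.01, and leaving out libraries. Counts over the pathway lists under other settings were added after seeing the data. Where an arm kept 2 libraries, the spread was pooled. Tables were made with Python 3.11.15, pandas 2.3.3 and scipy 1.17.1, figures with matplotlib 3.10.9.

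The 10 genes, the lists and the motif were chosen with earlier results of these data known. Named were the 10 genes, up to 4 genes of each list by smallest p in the retina and 2 in the striatum, the 5 most alike in the retina with a mean of at least 1 CPM, and up to 3 markers of each cell type; others are said to be chosen later, except where a count is spelled out. Some genes that this rule selects are left unnamed and their values are not reported here.

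Whether equal numbers pair pools was checked by correlating deviations from group means over 10445 genes, with a minimum of 0.1 for every number. Between wt and R6/1 striata the correlations were 0.274, 0.329 and 0.257, against at most 0.240 for different numbers, and between wt and R6/1 retinas 0.12, -0.09 and 0.05. Between R6/1 retinas and R6/1 striata they were 0.242, 0.119 and 0.179, but between wt retinas and wt striata none was over 0.1. The pairing of the striata thus comes from this check and not from the labels.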

Additional observations from a re-analysis of the deposited data

How the results depend on the processing

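In the retina 8 or 9 of the 10 genes passed under every alternative, and leaving out one library gave 8 to 9; filterByExpr left Oas1a and Mx1 untested, and DESeq2 gave Oas1a no adjusted p. In the striatum, where 0 passed, DESeq2 called 1, the replicate block 4, the fit without both striatal libraries numbered 2 called 4, and leaving out one library gave 0 to 4. For the difference between tissues, where 0 passed, DESeq2 and the fit without both libraries numbered 2 called 1 each, and leaving out one library gave 0 to 1. Between wt tissues 3 passed, with 3 to 6 on leaving out one library. Of the pathway genes 0 passed in the striatum, 8 with the replicate block and 11 without wt striatum replicate 2, where 2.83% and 4.32% of all genes tested rose. The replicate block ended no call in the retina and added Ifit3 between wt tissues (adjusted p = 0.0182). The difference changed sign for Ifit2 with library totals (0.017) and for Mx1 in limma-voom (-0.59), with the block (-0.20) and without both libraries numbered 2 (-0.94). Leaving out one library, log2 values that crossed 0 ran from -0.17 to 0.47 for Rsad2 in the striatum, for the difference from -0.23 to 0.20 for Ifit2, -0.20 to 0.48 for Ifit3 and -1.34 to 0.49 for Mx1, and between wt tissues from -0.20 to 0.75 for Ifit1, -0.037 to 0.11 for Ifih1, -1.15 to 0.67 for Mx1 and -0.38 to 0.45 for Isg15. The causes were not tested. With library totals in place of TMM the median over all genes was 0.13 (retina) and 0.12 (striatum), and that of the 10 genes 1.37 and 0.66. Over all genes that scaling gave 3886 higher and 1445 lower calls in the retina, against 1588 and 2103, and 220 and 209 in the striatum, against 22 and 220. Striatal calls over all genes numbered 242, and 982 in DESeq2, 1235 in the fit of 12 libraries, 1663 with the block, 2662 without both libraries numbered 2 and 1 to 1916 on leaving out one library. For the difference they numbered 1296, with 2129 without both libraries numbered 2 and 767 to 1999 on leaving out one library. Within a tissue, dropping the count filter left the genes tested as they were. With at most 67 counts per tissue, Oas1a and Mx1 allow only large differences to be seen.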
